A study of Mus musculus with 6 samples.

Results

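The proteasome is the protease that takes apart proteins tagged with ubiquitin, and the genes described here are those of its constitutive subunits, measured by RNA-seq in mouse myeloid cells sorted from brain tumours. Members were all rows of the deposited gene table with a symbol made of Psma, Psmb, Psmc or Psmd and a number, without Psmb8, Psmb9, Psmb10 and Psmb11, whose products replace constitutive subunits in immune cells or the thymus. This gave 35 of the 23107 genes in the table, of which 15 encode the core particle and 20 carry the Psmc and Psmd symbols of the regulatory particle. The rule itself uses names and no measured value, although it was proposed with earlier results of these data known. All 6 libraries came from CD11b+ Gr-1+ cells in C57BL/6 mice, enriched on Percoll and sorted by flow cytometry. In 3 of them (mIDH1) the tumour carried mutant IDH1, and in the other 3 (wtIDH1) it carried wild type IDH1. IDH1 is a cytosolic isocitrate dehydrogenase whose mutant form in glioma makes 2-hydroxyglutarate. The genotype belongs to the tumour, while the RNA is that of cells sorted out of it. The sources used here do not give how the tumours were made, the age of the mice or whether each library came from its own mouse. P-values therefore measure only the library-to-library spread, some of which may be technical.

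The core particle is a barrel of stacked rings. The outer rings are made of alpha subunits, which form the gate, and the inner rings of beta subunits, among them the catalytic subunits encoded by Psmb5, Psmb6 and Psmb7. The regulatory particle caps the barrel. Its base holds a ring of ATPases that unfold substrates, and its lid holds the enzyme that removes ubiquitin chains. In immune cells exposed to interferon the catalytic subunits are exchanged for those encoded by Psmb8, Psmb9 and Psmb10, which gives the immunoproteasome. When proteasome activity falls short, the transcription factor encoded by Nfe2l1 is known to raise the subunit genes together.

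Library totals ranged from 19728204 to 35093267 estimated counts. Levels are given as CPM (counts-per-million) scaled by the trimmed mean of M values (TMM), and a count of 0 still allows between 0.0861 and 0.151 CPM on this scale, which covers counting error only. The defining gene of the sort, Itgam (CD11b), was at 2224, 1832 and 2161 CPM in mIDH1 libraries and at 1779.8, 1843 and 2058 CPM in wtIDH1 libraries. Gr-1 is an epitope of Ly6G and Ly6C, and Ly6c2 fell, at 46.9, 54.3 and 33.8 CPM in mIDH1 and 120.2, 215 and 121 CPM in wtIDH1 (log2 fold change -1.76 ± 0.26, edgeR adjusted p = 0.00184), although reads may be split with its close paralog Ly6c1. The 8 markers of the sorted cells, of which 1 rose (Cxcr2) and 2 fell (Ly6c2 and Csf3r), summed to 3293 to 3850 CPM in mIDH1 and 3403 to 3812 CPM in wtIDH1. The 7 macrophage markers found, of 8 listed, summed to 7329 to 14974 CPM in mIDH1 and 5663 to 6536 CPM in wtIDH1, with no overlap, and 3 of them (Mrc1, Cd68 and C1qb) rose. Log2 fold changes were positive for 6 of the 7. Csf1r was the exception (-0.29, not called), with every mIDH1 library below every wtIDH1 library. The highest sum, in mIDH1 replicate 3, held 6836 CPM of Apoe, whose groups overlapped. T and NK cell markers (6 of 7 found) summed to 210 to 384 CPM in mIDH1 and 137 to 236 CPM in wtIDH1. All 6 had positive log2 fold changes, from 0.60 to 1.01, and none was called. The 5 B cell genes summed to 5.43 to 12.03 CPM in mIDH1 and 2.72 to 4.55 CPM in wtIDH1, and the 8 glioma and neural genes to 13.1 to 18.9 CPM in mIDH1 and 11.0 to 11.7 CPM in wtIDH1. Of these 8, 4 were tested and had mixed signs (median log2 fold change -0.24): Sox2 rose (5.66), and Nes (1.62), Gfap (-2.09) and Ptprz1 (-2.30) were not called. The 5 endothelial genes summed to 65.8 to 108 CPM in mIDH1 and 103 to 141 CPM in wtIDH1. Of these, 4 were tested, with negative log2 fold changes from -1.07 to -0.31, and none was called. Of the 4 erythroid genes found, 3 were at 0 in all libraries, and the sums were at most 4.22 CPM in mIDH1 and 0.0924 CPM in wtIDH1. The part of these other cells in the results below was not tested, and in bulk samples fewer cells of a type and less RNA per cell cannot be told apart.

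Of 34 members tested, 1 passed the threshold, an adjusted p under 0.05 in edgeR's quasi-likelihood test over all 12950 genes tested. This was Psmd1, which encodes a large scaffold protein of the regulatory particle's base, and it was higher in mIDH1. Over all genes 8.17% were called, 2.78% higher and 5.39% lower in mIDH1. In the core particle 0 of 14 tested genes were called by edgeR. At an unadjusted p under 0.05 there were 3 core members, all higher in mIDH1, and DESeq2 called 1 (Psmb1). In the regulatory particle 1 of 20 was called, and 2 had an unadjusted p under 0.05, both higher. At the unadjusted threshold 22.2% of all genes passed, 10.1% higher and 12.1% lower.

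Most members had small fold changes. The median log2 fold change (mIDH1 minus wtIDH1) was 0.24 in the core particle and 0.21 in the regulatory particle, beside 0.06 over all genes tested. The core median rested on single libraries: it was 0.11 without mIDH1 replicate 3, beside 0.03 over all genes in that fit, and 0.038 without wtIDH1 replicate 1, beside 0.06 over all genes. Values were positive for 10 of 14 core and 12 of 20 regulatory members, and for 53.4% of all genes. With upper-quartile factors or library totals alone, 28 of the 34 were positive instead of 22, while the median of all genes moved to 0.12 and 0.13. The 95% interval of the log2 fold change lay between -1 and 1, that is within a 2-fold change in either direction, for 11 of 14 core and 18 of 20 regulatory members, and for 35.2% of all genes. The median coefficient of variation of the members between replicates was 11.4% in mIDH1 and 15.1% in wtIDH1, beside 28.2% in mIDH1 and 23.9% in wtIDH1 over all genes. Tested members had group means of at least 11.8 CPM, while those of all genes tested reached down to 0 CPM. Neither the intervals nor the coefficients of variation were compared with genes of matched level.

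**Figure D1:**
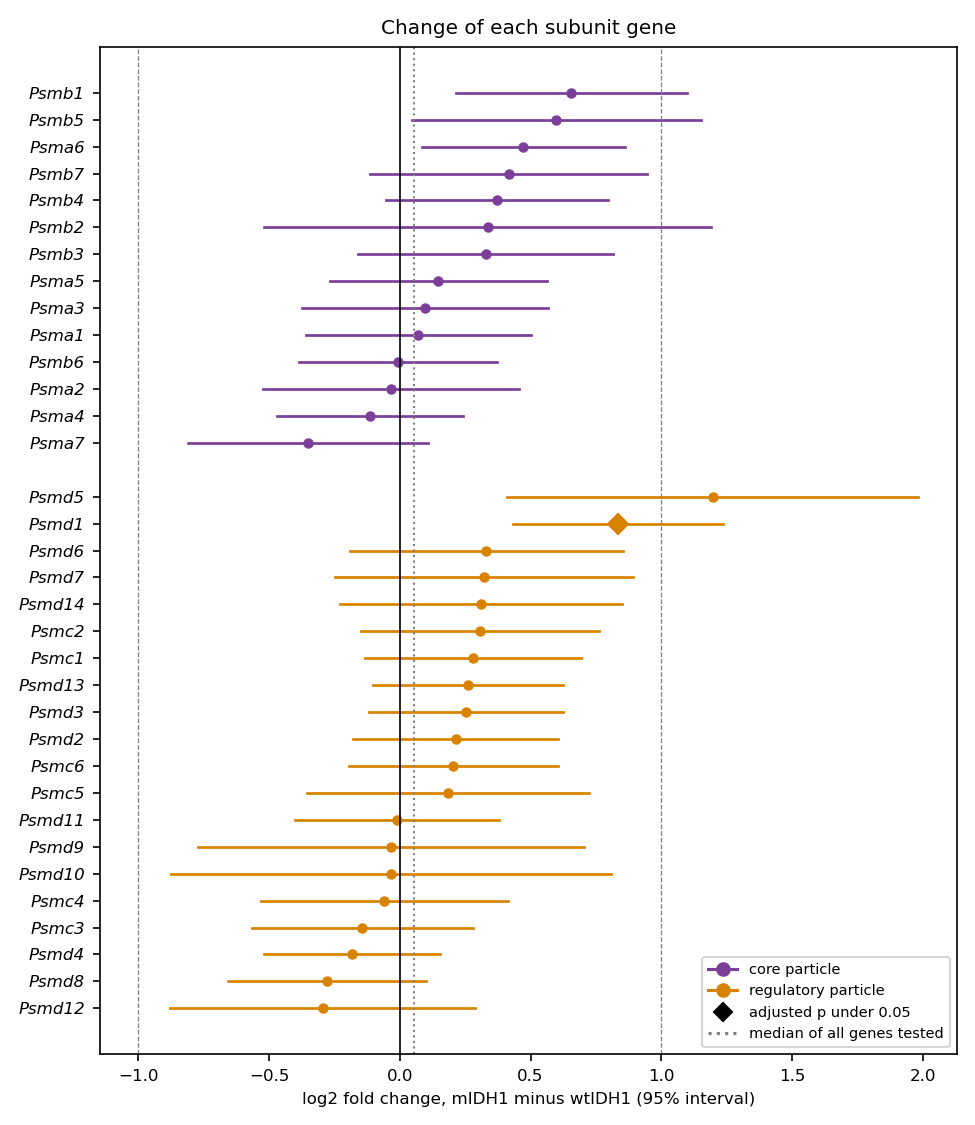
Log2 fold change (mIDH1 minus wtIDH1, horizontal axis) of each tested subunit gene, with its 95% interval from edgeR's quasi-likelihood test; core members are purple and regulatory members orange, each sorted by value, and the dotted line is the median of all genes tested (0.06). Psmd1 is the one member past the threshold (diamond), and Psmd5 has the highest value, 1.20, with an interval from 0.41 to 1.98.

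In the alpha ring 7 of 8 genes were tested and none was called, with log2 fold changes from -0.35 to 0.47 and a median of 0.07. Psma6 had the smallest p of the ring, and its levels were 111, 104 and 94.8 CPM in mIDH1 and 84.9, 73.8 and 64.7 CPM in wtIDH1 libraries. Every mIDH1 library was above every wtIDH1 library, with a log2 fold change of 0.47 ± 0.18 (SE) and an adjusted p of 0.135. Psma7 went the other way, at 38.2, 38.8 and 33.0 CPM in mIDH1 and 44.9, 46.2 and 49.4 CPM in wtIDH1. Its groups did not overlap either, and the log2 fold change was -0.35 ± 0.21 (adjusted p = 0.369). Between these extremes Psma1, Psma3 and Psma5 had log2 fold changes of 0.07, 0.10 and 0.15, and Psma2 and Psma4 of -0.03 and -0.11. Psma3 was steady in mIDH1 at 101, 101 and 103 CPM, whereas in wtIDH1 replicate 3, at 132 CPM, stood above the other libraries of its group at 77.3 and 76.8 CPM. Psma8, an alpha subunit known from the testis, was the member listed lowest and did not pass the filter on low counts. It had 5, 1 and 61 counts in mIDH1 and 0, 3 and 2 counts in wtIDH1, so that mIDH1 replicate 3 alone held most of its reads.

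In the beta ring all 7 genes were tested and none was called by edgeR, and 6 of 7 log2 fold changes were positive, with a median of 0.37. Psmb1, a beta subunit without catalytic activity (chr17:15475021-15499751), came closest. It was at 112, 90.8 and 136 CPM in mIDH1 and at 86.4, 64.3 and 64.4 CPM in wtIDH1 libraries. All mIDH1 libraries were above all wtIDH1 libraries, by a log2 fold change of 0.66 ± 0.20, and the adjusted p was 0.0692. The other subunits without catalytic activity, Psmb2, Psmb3 and Psmb4, had log2 fold changes of 0.34, 0.33 and 0.37 with intervals that held 0. In Psmb2, wtIDH1 replicate 1 was at 7.53 CPM, below the other wtIDH1 libraries at 18.8 and 18.0 CPM and below all mIDH1 libraries.

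None of the 3 catalytic genes was called. Psmb5, which carries the chymotrypsin-like site (chr14:54614119-54618022), was at 62.6, 43.7 and 39.6 CPM in mIDH1 and at 31.2, 26.4 and 38.8 CPM in wtIDH1. The groups were separated by less than 1 CPM, between mIDH1 replicate 3 and wtIDH1 replicate 3, and the log2 fold change was 0.60 ± 0.26 (adjusted p = 0.185). Psmb7, with the trypsin-like site, was at 33.0, 37.9 and 41.8 CPM in mIDH1 and 30.2, 23.0 and 31.3 CPM in wtIDH1. Its groups did not overlap and its log2 fold change was 0.42 ± 0.24 (adjusted p = 0.355). Psmb6, with the caspase-like site, was at 111, 85.2 and 104 CPM in mIDH1 and 97.3, 109 and 95.5 CPM in wtIDH1. The groups overlapped, with a log2 fold change of -0.01 ± 0.17, a 95% interval from -0.38 to 0.37 and an adjusted p of 0.988. Exons of Psmb7 overlap those of the antisense gene Nek6 over 34.9% of its transcript, and the library kit does not mark strand, so reads there cannot be told apart. Nek6 itself had a log2 fold change of 0.16 and was not called.

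Each constitutive catalytic gene was then set against the immunoproteasome gene that can take its place. Psmb8 was at 257, 232 and 185 CPM in mIDH1 and 241, 300.02 and 231 CPM in wtIDH1, with a log2 fold change of -0.20 ± 0.18 (adjusted p = 0.59). Psmb9 was at 70.8, 47.4 and 33.5 CPM in mIDH1 and 53.7, 81.2 and 76.6 CPM in wtIDH1, with -0.48 ± 0.27 (adjusted p = 0.337). Psmb10 was at 103, 80.3 and 59.8 CPM in mIDH1 and 88.2, 102 and 83.6 CPM in wtIDH1, with -0.17 ± 0.21 (adjusted p = 0.711). In all 3 the groups overlapped, and in each mIDH1 replicate 3 was the lowest library. The Psmb5 to Psmb8 ratio of counts was 0.243, 0.189 and 0.214 in mIDH1 libraries and 0.129, 0.0881 and 0.168 in wtIDH1 libraries. The groups did not overlap, and the mean log2 ratio differed by 0.79 (two-sided exact permutation test, p = 0.1, which is the smallest p that 3 libraries against 3 allow, and 0.3 after Benjamini-Hochberg adjustment over the 3 pairs). For Psmb6 to Psmb9 the ratio was 1.57, 1.80 and 3.11 in mIDH1 and 1.81, 1.34 and 1.25 in wtIDH1, and for Psmb7 to Psmb10 it was 0.319, 0.472 and 0.699 in mIDH1 and 0.343, 0.225 and 0.374 in wtIDH1. In both of these pairs the groups overlapped, with mean log2 differences of 0.51 and 0.62 and an exact permutation p of 0.3 for each, also 0.3 after adjustment. These are ratios of counts and not of molecules, since the transcripts differ in length. The Psmb5 transcript, of 899 bases, has a near-identical match of 796 bases (at least 95% identity) in a transcript of another gene. Reads may have been misassigned there, so the ratio of Psmb5 to Psmb8 is uncertain.

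**Figure D2:**
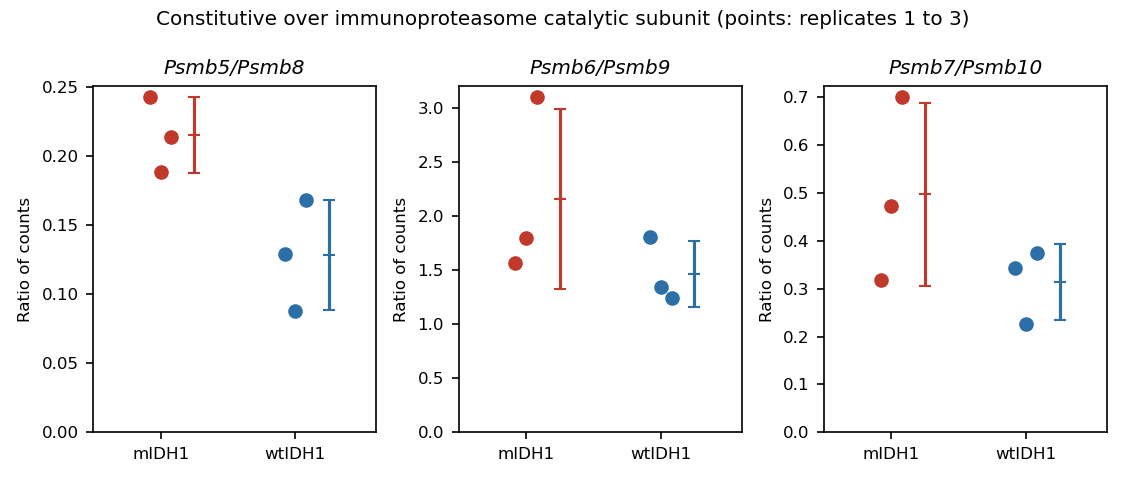
Ratio of counts of each constitutive catalytic subunit gene to its immunoproteasome counterpart (vertical axes, starting at 0) in every library, mIDH1 left and wtIDH1 right, with the mean ± SD of 3 libraries beside the points. The groups are apart for Psmb5/Psmb8 and overlap for Psmb6/Psmb9 and Psmb7/Psmb10.

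Of the 6 ATPase genes of the base, Psmc1 to Psmc6, which form the ring that unfolds substrates and feeds them to the core, none was called. Their log2 fold changes ran from -0.14 (Psmc3) to 0.31 (Psmc2), with a median of 0.19 and 4 of 6 positive. All 6 intervals lay within a 2-fold change in either direction. Mean levels were 44.0 to 76.9 CPM in mIDH1 and 38.8 to 77.3 CPM in wtIDH1. The groups did not overlap in 1 of the 6, Psmc1, at 73.6, 78.4 and 68.9 CPM in mIDH1 and 50.2, 65.8 and 66.0 CPM in wtIDH1 (log2 fold change 0.28 ± 0.19, adjusted p = 0.436).

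The base also holds subunits that are not ATPases. Psmd1 (chr1:86064387-86139151, + strand, 25 exons in its principal transcript) was at 141, 154 and 127 CPM in mIDH1 and at 95.5, 73.7 and 67.3 CPM in wtIDH1 libraries. The lowest mIDH1 library was above the highest wtIDH1 library. The means were 141 ± 13.5 CPM in mIDH1 and 78.8 ± 14.8 CPM in wtIDH1 (SD, n = 3 each), a log2 fold change of 0.83 ± 0.19 (SE) with a 95% interval from 0.43 to 1.24 and an adjusted p of 0.0173. The counts behind it were 4915, 4952 and 2666 in mIDH1 and 2067, 1943 and 1334 in wtIDH1. The call rested on several libraries. It was lost without mIDH1 replicate 2 (adjusted p = 0.0683), without wtIDH1 replicate 2 (0.103) and without wtIDH1 replicate 3 (0.0991), while the log2 fold change stayed between 0.73 and 0.99 over the 16 other settings tried. In these 3 fits 558, 334 and 364 of all genes were called, instead of 1058. Without wtIDH1 replicate 1, where 665 were called, the call of Psmd1 stayed. Of the Psmd1 transcript 9.67% is shared with the gene model Gm21972 on the same strand.

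The other two genes of this group were not called. Psmd2, whose product is the docking platform for ubiquitin shuttle proteins, was at 153, 223 and 198 CPM in mIDH1 and 154, 183 and 158 CPM in wtIDH1, with overlapping groups (log2 fold change 0.21 ± 0.18, adjusted p = 0.551). Psmd4, a ubiquitin receptor, was at 147, 145 and 136 CPM in mIDH1 and 170, 163 and 154 CPM in wtIDH1. Every mIDH1 library was below every wtIDH1 library, with a log2 fold change of -0.18 ± 0.16 and an adjusted p of 0.548.

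The 8 lid genes, Psmd3, Psmd6, Psmd7, Psmd8, Psmd11, Psmd12, Psmd13 and Psmd14, held no call, and 5 of the 8 log2 fold changes were positive, with a median of 0.26. Psmd14 encodes the deubiquitinase of the lid, and it was at 62.6, 51.9 and 85.2 CPM in mIDH1 and 45.4, 45.0 and 70.6 CPM in wtIDH1. The groups overlapped, and the log2 fold change was 0.31 ± 0.25 (adjusted p = 0.525). Psmd3 and Psmd13 had groups that did not overlap, with log2 fold changes of 0.25 and 0.26 and adjusted p of 0.431 and 0.407. Psmd8 was separated in the other direction, at 67.2, 78.9 and 65.3 CPM in mIDH1 and 87.2, 86.2 and 83.0 CPM in wtIDH1 (log2 fold change -0.28 ± 0.18, adjusted p = 0.393). Psmd12 had the lowest log2 fold change of the regulatory particle, -0.30 ± 0.27 (adjusted p = 0.583), at 36.4, 25.1 and 45.0 CPM in mIDH1 and 37.7, 38.4 and 54.6 CPM in wtIDH1. In both groups its replicates spread widely, and the groups overlapped. Psmd6, Psmd7 and Psmd11 had log2 fold changes of 0.33, 0.32 and -0.01, with overlapping groups.

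Psmd5, Psmd9 and Psmd10 bear Psmd symbols but encode chaperones that help to assemble the base and are not part of the finished particle. Psmd5 (chr2:34849734-34874968) had the largest log2 fold change of all members, at 33.0, 28.4 and 19.9 CPM in mIDH1 and 13.8, 14.9 and 6.81 CPM in wtIDH1. The groups did not overlap, the means were 27.1 ± 6.66 CPM in mIDH1 and 11.8 ± 4.37 CPM in wtIDH1, and the log2 fold change of 1.20 ± 0.36, with a 95% interval from 0.41 to 1.98, missed the threshold (adjusted p = 0.0619). It passed in 5 of the 16 other settings, 1 of them the fit without mIDH1 replicate 3. Psmd9 and Psmd10 were each at -0.03 with intervals from -0.77 to 0.71 and from -0.88 to 0.81, among the widest of the members.

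**Figure D3:**
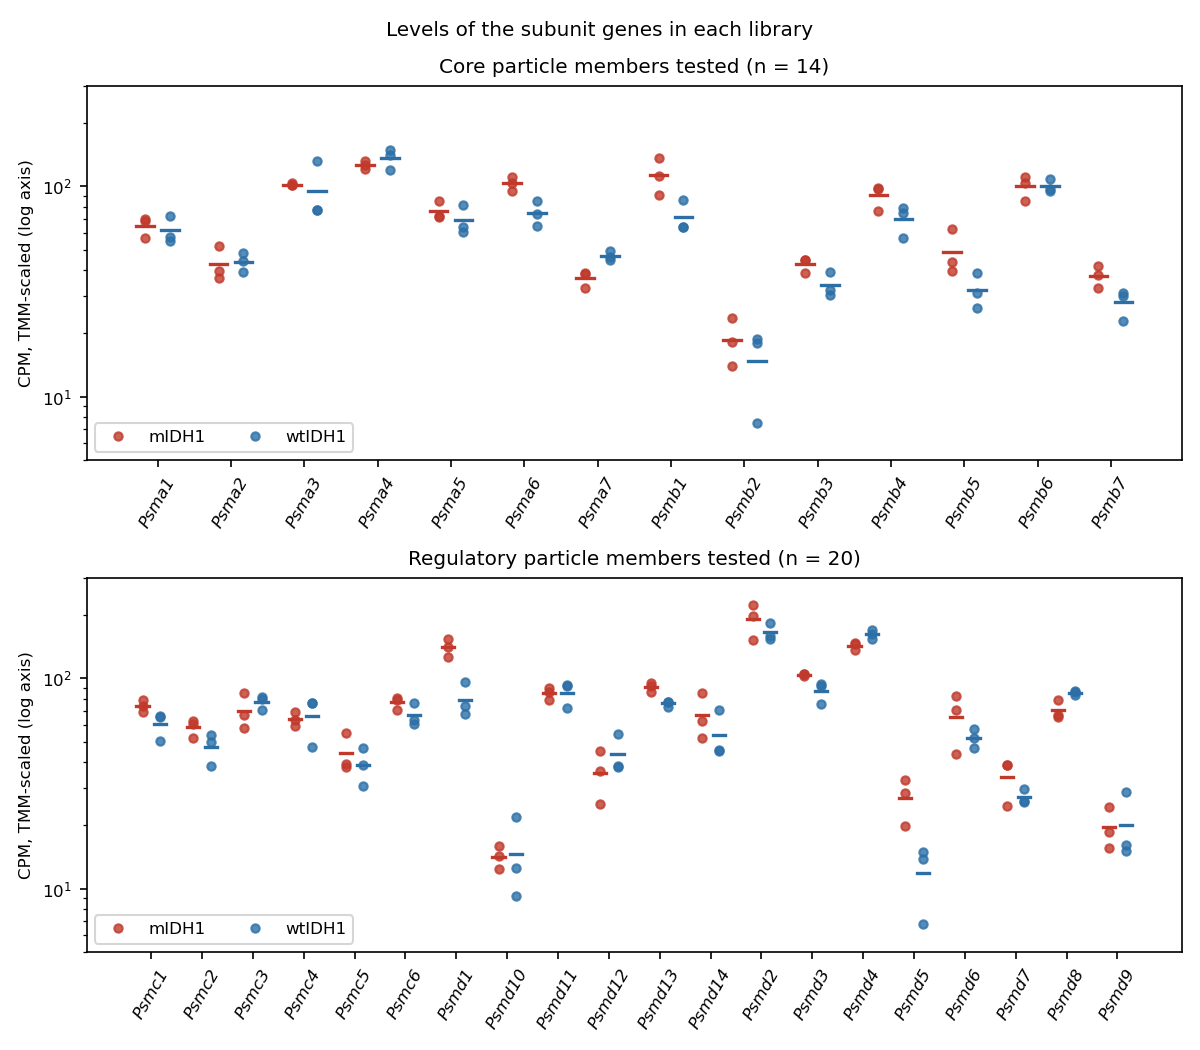
CPM (log axis) of every tested core gene (upper panel) and regulatory gene (lower panel) in each of the 3 mIDH1 (red, left) and 3 wtIDH1 (blue, right) libraries, with the group mean as a bar. Most pairs of groups overlap; Psmd1 and Psmd5 show the widest gaps, and Psma7, Psmd4 and Psmd8 have all mIDH1 points below all wtIDH1 points.

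Separation without overlap was found in 9 of 34 members with mIDH1 higher and in 3 with mIDH1 lower. Over all genes tested the share was 28.9%, with 14.0% higher and 14.9% lower. The core particle held 4 of the higher ones (Psma6, Psmb1, Psmb5 and Psmb7) and 1 of the lower ones (Psma7). The regulatory particle held 5 of the higher ones (Psmc1, Psmd1, Psmd3, Psmd5 and Psmd13) and 2 of the lower ones (Psmd4 and Psmd8). Single libraries were at the ends for different members. The 3 mIDH1 libraries were the highest of the 6 for 7, 7 and 9 members and the lowest for 1, 6 and 3, while the wtIDH1 libraries were the highest for 2, 4 and 5 members and the lowest for 5, 8 and 11. No library was the highest or the lowest for most members.

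Summed over the particle, the differences were small and separated the groups. The core genes, Psma8 included, summed to 1018, 964 and 1032 CPM in mIDH1 and 848, 900 and 891 CPM in wtIDH1 libraries, 1.14-fold higher in mIDH1 on the means of 1005 ± 35.9 and 880 ± 27.6 CPM. The regulatory genes summed to 1455, 1458 and 1508 CPM in mIDH1 and 1319, 1333 and 1309 CPM in wtIDH1, 1.12-fold higher on the means of 1474 ± 29.8 and 1320.1 ± 12.1 CPM. With libraries scaled by their totals alone the folds were 1.20 and 1.18. These sums weigh genes of high count most, and no test was made of them. The ratio of regulatory to core sums was 1.43, 1.51 and 1.46 in mIDH1 and 1.55, 1.48 and 1.47 in wtIDH1. It averaged 1.47 ± 0.04 in mIDH1 and 1.50 ± 0.05 in wtIDH1, with overlapping groups.

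By another summary, the median over genes of each gene's log2 deviation from its own mean, the groups were not apart. A median and a sum differ in more than how they weigh genes, so this does not show which genes separated the sums. The median deviation of the 14 core genes was 0.11, 0.03 and 0.12 in the mIDH1 libraries and -0.13, 0.04 and -0.06 in the wtIDH1 libraries. For the 20 regulatory genes it was 0.10, -0.04 and 0.16 in mIDH1 and -0.12, -0.01 and -0.10 in wtIDH1. In both particles replicate 2 of mIDH1 lay within the range of the wtIDH1 libraries.

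**Figure D4:**
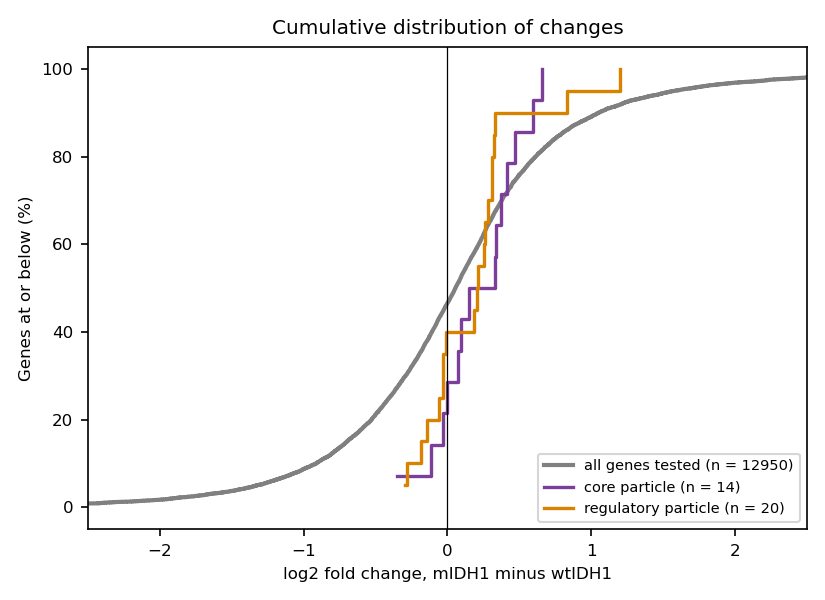
Cumulative share of genes (vertical axis, percent) at or below each log2 fold change (horizontal axis, mIDH1 minus wtIDH1) for the 14 core genes, the 20 regulatory genes and all 12950 genes tested. Both particles rise steeply between the values of Psma7 (-0.35) and Psmb1 (0.66), with Psmd1 (0.83) and Psmd5 (1.20) to the right, while all genes spread further on both sides.

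Levels can be compared between genes only per length, and for this CPM were divided by the length in kb of the principal transcript of each gene. Psmb6 was highest in the core particle, at 126 ± 16.8 CPM per kb in mIDH1 and 126 ± 9.14 CPM per kb in wtIDH1. Psmd4 was highest in the regulatory particle, at 107 ± 4.36 CPM per kb in mIDH1 and 122 ± 5.90 CPM per kb in wtIDH1. The lowest tested genes per kb were Psma2 in the core, at 14.7 ± 2.76 CPM per kb in mIDH1 and 15.02 ± 1.57 CPM per kb in wtIDH1, and the chaperone gene Psmd5 in the regulatory group, at 6.16 ± 1.51 CPM per kb in mIDH1 and 2.69 ± 0.995 CPM per kb in wtIDH1. Averaged over the 6 libraries the highest was 8.47 times the lowest in the core and 25.9 times in the regulatory group. Without the assembly chaperones Psmd5, Psmd9 and Psmd10 the regulatory range was 5.91 times, from Psmd7 to Psmd4 among 17 subunit genes. The length used is that of 1 annotated transcript, which was 2911 bases for Psma2 and 4397 bases for Psmd5, and a shorter transcript in use would raise the value. At the top of this order Psmb6, Psmd4 and Psma4 overlapped within their SD in both groups.

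**Figure D5:**
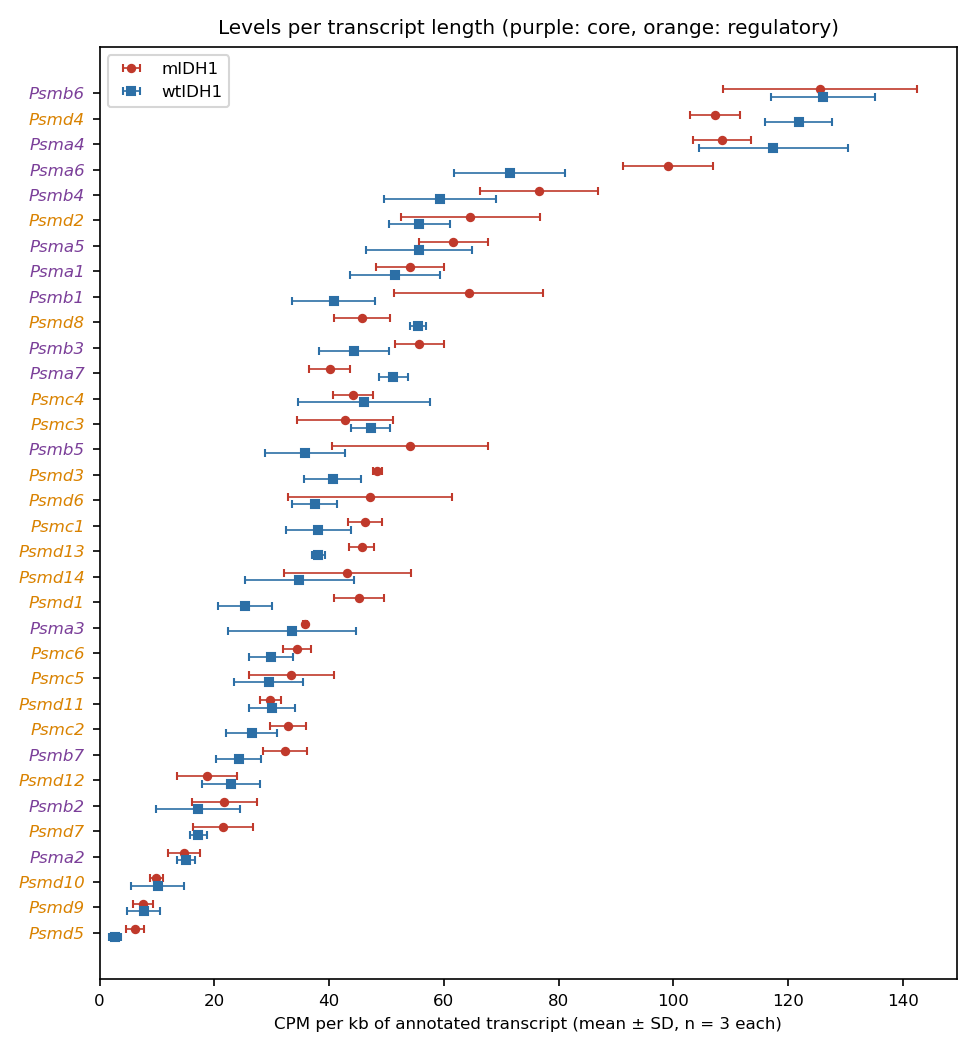
CPM per kb of annotated transcript (horizontal axis, from 0) of each tested member, ordered by its mean over the 6 libraries, with mIDH1 (red circles) above wtIDH1 (blue squares) and bars of ± 1 SD over 3 libraries. Psmb6, Psmd4 and Psma4 lie at the top and Psmd5 at the bottom in both groups.

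Since several regulators are known to act on subunit genes through short promoter motifs, the 300-base promoter windows of RefSeq (GRCm38.p6, 250 bases before to 50 after the gene start) were searched on both strands. A window was given for 28 members, and Psma8, Psmb1, Psmb2, Psmb7, Psmc3, Psmd3 and Psmd7 had none. The core of the antioxidant response element, TGACNNNGC, is the kind of site that the Nfe2l1 protein binds. It was present for 5 of 28 members, 17.9%, and for 13.99% of the 27025 genes with a window. These 5 stretches are shown because they include 2 catalytic genes, with the match in capitals on the strand of the gene (for Psmc6 and Psmd12 the match is on the opposite strand, so its reverse complement is seen).
Psmb5, chr14:54618024-54618052, - strand: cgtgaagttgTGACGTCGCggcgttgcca
Psmb6, chr11:70525338-70525366, + strand: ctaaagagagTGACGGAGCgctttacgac
Psmc6, chr14:45329587-45329615, + strand: ccagccagtaGCTAAGTCAggcattgctc
Psmd12, chr11:107479278-107479299, + strand: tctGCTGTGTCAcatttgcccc
Psmd9, chr5:123228149-123228177, + strand: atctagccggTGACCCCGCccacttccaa

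The 5 genes with this motif did not share a direction, with log2 fold changes of 0.60 for Psmb5, -0.01 for Psmb6, 0.21 for Psmc6, -0.30 for Psmd12 and -0.03 for Psmd9. None of them was called. The CCAAT box was present for 11 of 28 members (39.3%, beside 41.1% of all genes with a window) and the interferon-stimulated response type motif, 2 GAAA blocks spaced by 2 bases, for 3 of 28 (10.7%, beside 3.99%). The motif ACTTCCG, which resembles sites of ETS factors, was present for 11 of 28 members, 3 core and 8 regulatory (39.3%, beside 7.20%). None of these 4 motifs contains another, and ACTTCCG was kept for description after its matches had been seen. In all 9 motifs were counted. The others included TATAA (3 of 28, beside 27.99%), CCGGAA, which shares bases with ACTTCCG read on the opposite strand (15 of 28, beside 16.7%), and a nuclear respiratory factor type motif (6 of 28, beside 5.19%). The last 2 follow TGA with CT (4 of 28, beside 4.21%) or GT (0 of 28, beside 3.87%). Each has 4 bases between its first 4 bases and its closing GC, where the core of the antioxidant response element has 3. They are therefore not forms of that element, and their counts say nothing about it. The window of Psmd1 held none of the first 4 motifs. The shares set beside the members are over all genes with a window, whether expressed in these cells or not. No set of broadly expressed genes was compared, so no excess can be called particular to the proteasome genes. A match is a stretch of letters and not evidence of binding.

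None of the genes around the proteasome described in this paragraph was called, where 8.17% of all genes tested were. Lists this short can hold no call at that share. Among 5 genes for assembly of the core, Psmg1 to Psmg4 and Pomp, none was called and all 5 log2 fold changes were positive, from 0.01 to 1.28. Pomp, the maturation factor of the core, was at 132, 80.8 and 105 CPM in mIDH1 and 99.4, 109 and 107 CPM in wtIDH1 (log2 fold change 0.01 ± 0.20, adjusted p = 0.977). The groups overlapped, with the mIDH1 libraries on both sides of the wtIDH1 ones. None of the 5 genes for activators (Psme1 to Psme4) and an inhibitor (Psmf1) of the proteasome was called, and 3 of the 5 log2 fold changes were positive. Psme1 and Psme2, known as interferon-induced activators, had log2 fold changes of -0.33 and -0.47. Every mIDH1 library was below every wtIDH1 library for Psme1, and the groups overlapped for Psme2. Neither of the other regulatory particle genes found, Adrm1 and Shfm1 (an older symbol of Sem1), was called, at -0.06 and 0.38. Of 6 genes known to regulate proteasome genes or proteasome localisation and activity, none was called. Nfe2l1 was at 175, 192 and 160 CPM in mIDH1 and 176, 185 and 173 CPM in wtIDH1 (log2 fold change -0.02 ± 0.16, adjusted p = 0.967), with overlapping groups.

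Heat shock genes, which are known to respond to misfolded protein, had negative log2 fold changes in all 13 tested, with a median of -0.36. Of the 13, 3 fell, beside 5.39% of all genes called lower. Hspd1 (-0.04 ± 0.24), Dnajb1 (-0.11 ± 0.27) and Bag3 (-0.12 ± 0.20) were near no change. Signs under other scalings are not given for the uncalled genes of this list. Hsf1, the gene of the heat shock transcription factor, was at 11.8, 7.20 and 8.32 CPM in mIDH1 and 28.4, 20.8 and 26.9 CPM in wtIDH1 (log2 fold change -1.47 ± 0.34, adjusted p = 0.0193). Dnaja1, a co-chaperone gene, was at 56.7, 43.6 and 51.1 CPM in mIDH1 and 65.6, 105 and 110.3 CPM in wtIDH1 (log2 fold change -0.89 ± 0.23, adjusted p = 0.0301). In both genes the groups were apart. Hspa1b was at 16.1, 25.7 and 5.37 CPM in mIDH1 and 23.8, 108 and 79.9 CPM in wtIDH1, with overlapping groups. Its log2 fold change was -2.16 ± 0.55 (adjusted p = 0.0304), but it is nearly identical to Hspa1a, at -1.51 and not called, and reads may have been split between them. The call of Hsf1 was lost when mIDH1 replicate 2 or a single wtIDH1 replicate was left out, with adjusted p up to 0.0868, and that of Dnaja1 without mIDH1 replicate 2 or wtIDH1 replicate 2 or 3, with adjusted p up to 0.146, and with the replicate block (0.0783). That of Hspa1b was lost without mIDH1 replicate 1 or wtIDH1 replicate 2 or 3, with adjusted p up to 0.161, and also in DESeq2 (0.064), limma voom (0.057) and with robust dispersion (0.131), so that it was called in 10 of the 16 other settings. Of 13 cell cycle genes none was called, with 9 positive and a median of 0.31. Mki67 went the other way, at -0.84 ± 0.28 (adjusted p = 0.0918). Every mIDH1 library was below every wtIDH1 library for Mki67, although replicate 3 was at 89.0 CPM in mIDH1 and 89.1 CPM in wtIDH1.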

How the data were processed

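The deposited table holds the authors' estimated counts per gene for the 6 libraries, not scaled to library size, made on build mm10 with TopHat2 2.0.13, Bowtie2 2.2.1, Cuffdiff 2.1.1, HTSeq, FastQC and Cufflinks, per the submitters' processing notes. The order, settings and annotation used there were not given in the sources used here. Counts were rounded, filtered with filterByExpr (minimum count 10, minimum total 15), which left 12950 genes, scaled by TMM and compared with edgeR 4.0.16 in R 4.3.3 (glmQLFit and glmQLFTest with 1 term for group, which left 4 residual degrees of freedom). P-values are two-sided with Benjamini-Hochberg adjustment across the 12950 genes. Fold changes carry their SE and levels their SD. No libraries were duplicates, since replicates differed by more than counting error (chi-square of 48.5 to 139 for each degree of freedom). The code was tested on simulated data. Members, gene lists and marker lists were chosen with earlier results of these data known. Values in every library are given for members called, for Psmb5, Psmb6 and Psmb7, for the 3 smallest p and the extreme log2 fold changes of each particle and for the lowest member. Of other lists, marker lists aside, they are given for genes called and for Psmb8, Psmb9, Psmb10, Pomp and Nfe2l1. Outside this rule, values in every library are also given for Psma3, Psmc1, Psmd2, Psmd4, Psmd14, Itgam, Ly6c2 and Psmb11. Psma3, Psma4, Psma5, Psmb3, Psmb5, Psmc1, Psmd2 and Psmd11 have near-identical stretches (at least 95% over 200 bases) in transcripts of other genes, and Psma4, Psma5, Psmb7, Psmd3 and Psmd13 have antisense exon overlaps, so their values are uncertain. Positions and transcript lengths are of GENCODE on GRCm38 (mm10), and promoters are of RefSeq on GRCm38.p6. The result of 1 gene list is not reported here.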

Additional observations from a re-analysis of the deposited data

How the results depend on the processing

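Settings changed 1 at a time were other scalings, filters, tools (DESeq2 1.42.0, limma voom 3.58.1), robust dispersion, a replicate block, leaving out each library and, added after seeing the data, edgeR's newer quasi-likelihood fit. DESeq2 was run with its defaults, so its size factors and filter (14564 genes tested) differed as well as the tool. The core count was 1 (Psmb1) instead of 0 with no filter and in DESeq2. The regulatory count was 2 (Psmd1 and Psmd5) instead of 1 with library totals alone, no filter, DESeq2 and the newer fit. The core median was 0.32 with library totals alone. Leaving out each library gave core counts of 0 to 0, regulatory counts of 0 to 2, core medians of 0.038 (without wtIDH1 replicate 1) to 0.28, with 0.11 without mIDH1 replicate 3, and regulatory medians of 0.16 to 0.23.

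Members near no change altered sign. Under upper-quartile scaling and library totals alone, which moved the median of all genes from 0.06 to 0.12 and 0.13, Psma2 was at 0.035 and 0.0498, Psmb6 at 0.055 and 0.070, Psmc4 at 0.00088 and 0.0096, Psmd9 at 0.034 and 0.048, Psmd10 at 0.026 and 0.046, Psmd11 at 0.051 and 0.065, and Nfe2l1 at 0.044 and 0.057. Psmb6 was at 0.0037 with at least 1 CPM in all libraries, and Pomp at -0.014 in voom. Leaving out each library, Psma1 ranged from -0.0066 to 0.20, Psma2 from -0.19 to 0.067, Psma3 from -0.046 to 0.40, Psmb6 from -0.088 to 0.098, Psmb10 from -0.38 to 0.0097, Psmc4 from -0.26 to 0.048, Psmc5 from -0.013 to 0.34, Psmd9 from -0.22 to 0.32, Psmd10 from -0.28 to 0.38, Psmd11 from -0.12 to 0.043, Nfe2l1 from -0.083 to 0.046 and Pomp from -0.18 to 0.18. The cause was not tested.

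In the fit with the replicate block, 585 genes were called instead of 1058, members still 0 core and 1 regulatory; Psmd9 was at 0.0035, Psmd10 at 0.057 and Pomp at -0.015, and the call of Dnaja1 was lost (adjusted p = 0.0783). Same-numbered libraries did not deviate together (r = -0.03, 0.03 and -0.05), which cannot show whether they were collected or processed as pairs. DESeq2 called 1698 genes. Without mIDH1 replicate 2 or wtIDH1 replicate 1, 2 or 3 the count was 558, 665, 334 and 364.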

Other observations

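Psmb11, left out of the constitutive set because its product is known from the thymus, had counts in all 6 libraries, 205, 149 and 110 in mIDH1 and 73, 112 and 89 in wtIDH1. Its mean level was 5.25 ± 0.63 CPM in mIDH1 and 4.04 ± 0.59 CPM in wtIDH1 (log2 fold change 0.38 ± 0.60, edgeR adjusted p = 0.779). On GRCm38 no other annotated gene has exons in its span (chr14:54621433-54629556), which lies next to Psmb5.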
